A study of Mus musculus with 7 samples.

Results

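The inhibin, activin and follistatin system of the ovary was read from 10 genes of the 55487 gene identifiers in the count tables. They are the ligand subunits Inha, Inhba and Inhbb, the ligand-binding proteins Fst and Fstl3, the receptors Acvr2a, Acvr2b, Acvr1b and Acvr1c, and the inhibin coreceptor Tgfbr3. The members were taken by symbol from GENCODE M21, which named 55394 of the identifiers. All 10 were found, and all 10 passed the filter on low counts that left 18779 genes for testing.

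Inhibins and activins are dimers that share the same beta subunits. An inhibin joins the alpha subunit (Inha) to a beta subunit (Inhba or Inhbb), whereas an activin is made of beta subunits alone. Both are products of the granulosa cells of growing follicles: inhibin lowers FSH release from the pituitary, activin raises it and also acts inside the follicle through SMAD2 and SMAD3, and follistatin binds activin and keeps it from its receptors.

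Whole ovaries of C57BL/6J mice, collected at diestrus on postnatal day 60, were sequenced one mouse per library. The CNTR group (3 libraries) held offspring of dams injected with PBS while pregnant. The PAMH F3 group (4 libraries) descended, through the PAMH F1 and PAMH F2 generations, from dams (F0) given human recombinant anti-Müllerian hormone (AMH) at 0.12 mg/kg per day from E16.5 to E18.5 of pregnancy; no AMH was given to later generations. The injections are subcutaneous in the sample labels and intraperitoneal in the study's methods. The CNTR mice were first-generation offspring and the PAMH F3 mice third-generation offspring, so the treatment of the ancestors and the generation cannot be told apart. The comparison asked whether the system was expressed differently in ovaries of the PAMH F3 mice, which received no AMH themselves.

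Reads counted on genes ran from 32968559 to 33383986 in CNTR and from 32158174 to 35485021 in PAMH F3. Levels are given as CPM, the counts scaled to a common library size with edgeR's TMM factors. CNTR 2 stood apart in base composition: GC-rich genes were high in it, with a slope of 0.30 (log2) for every 10% of GC, while slopes in the other 6 libraries lay between -0.12 and 0.05. CNTR 3 had the highest CPM of several steroid-producing genes, among them Cyp19a1 (aromatase) at 212 CPM against 57.6 and 81.2 in the other CNTR libraries. Ovarian cell types were plain in the markers, and markers of other tissue were present too. The surface and oviduct epithelium list summed to 3260 to 5619 CPM in CNTR and to 2752 to 6692 in PAMH F3. Ovgp1 made up 89.7% of that sum. The adipocyte list summed to 206 to 646 CPM in CNTR and to 83.6 to 477 in PAMH F3. The oocyte, granulosa, theca and luteal lists held all their genes but Insl3 (at most 5 counts in a library) above the filter, while Fshb and Lhb, the gonadotropin subunits of the pituitary, had no count in any library, which allows up to 0.0941 CPM (3 counts).

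In PAMH F3 ovaries the mean levels of Inhbb and Fst were 1.46 and 1.49 times those in CNTR, Inhba was 1.25 times as high with a wide spread between mice, and Inha differed by less than its spread. For the receptors and the coreceptor the ratio of the means ran from 0.821 (Acvr1c) to 1.10 (Acvr2a). No member passed an adjusted p of 0.05 in edgeR's quasi-likelihood test, where 0% of all genes did. In the same test 3 of the 10 members (Inhba, Inhbb and Fst) had an unadjusted p under 0.05, all higher in PAMH F3, against 7.64% of all genes tested and 3.75% in that direction. That model held 2 surrogate variables, covariates that svaseq draws from the counts themselves for differences between libraries that no label names. Without them 2 members (Inhbb and Fst) were under 0.05, both higher in PAMH F3, against 3.95% of genes and 1.11% in that direction. Inhbb and Fst were also singled out by the study from these same libraries, so their counts here are not independent evidence of a direction. In DESeq2's test with the same surrogate variables, both passed the adjusted threshold, as did 101 genes in all (0.583% of those given an adjusted p, and 0.265% as higher in PAMH F3). Without surrogate variables DESeq2 called neither, with an adjusted p of 0.998 for both. The libraries of the groups overlapped in CPM for all 10 members, while 4.25% of all genes had groups that did not overlap. Over the members the median log2 fold change was 0.07, with 6 higher and 4 lower in PAMH F3, beside a median of 0.0049 over all genes.

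**Figure D1:**
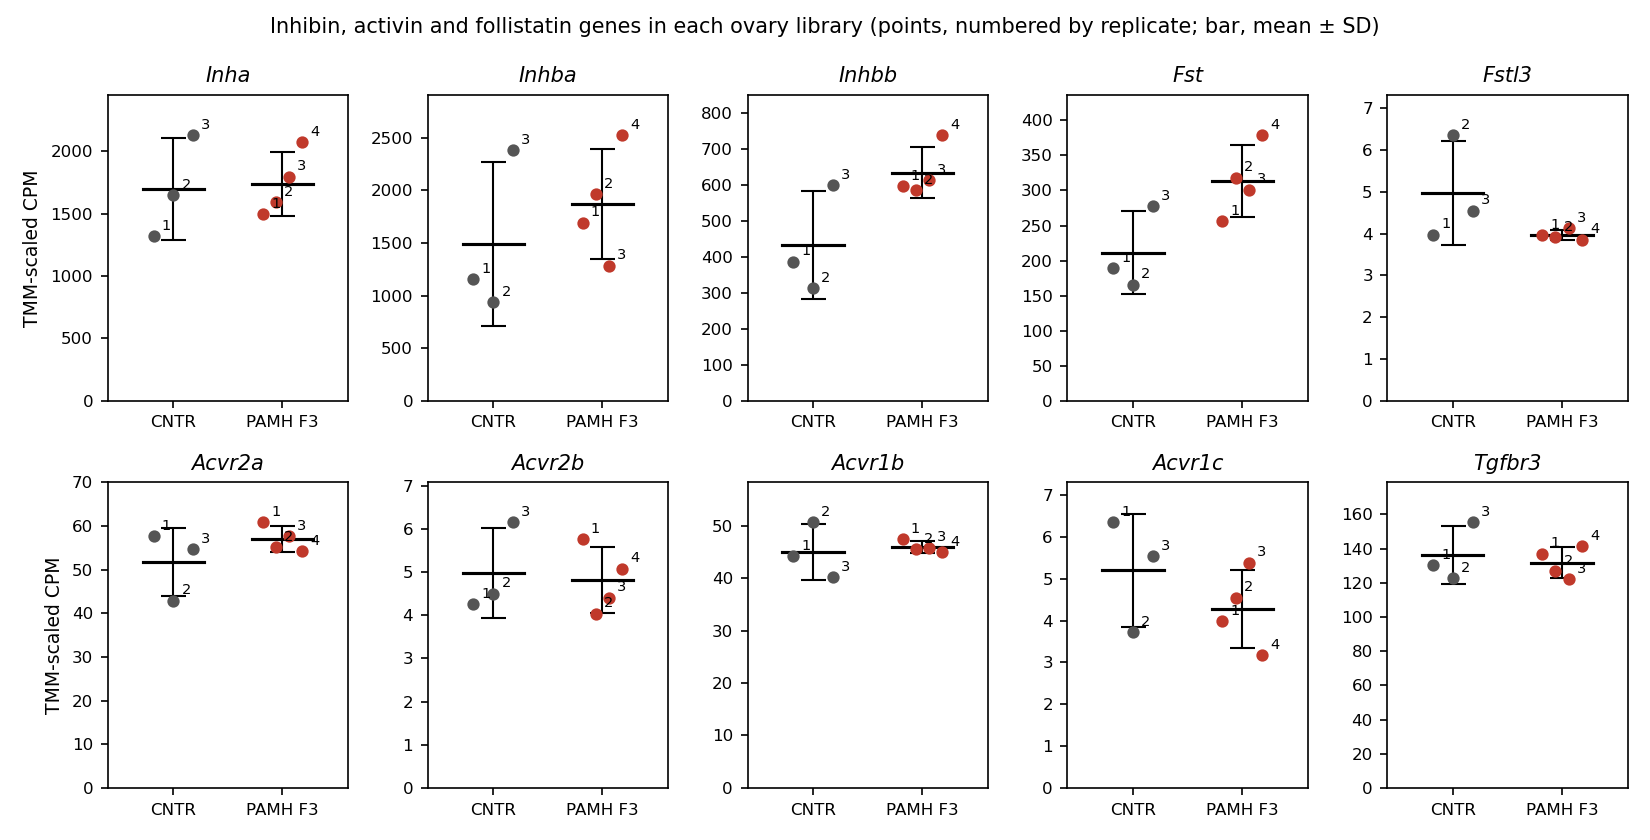
TMM-scaled CPM (y axes, linear, from 0) of the 10 members in the 3 CNTR libraries (grey) and the 4 PAMH F3 libraries (red), numbered by replicate; lines and bars are the mean ± SD. For Inhbb and Fst the CNTR libraries 1 and 2 lie below all PAMH F3 libraries and CNTR 3 lies among them. For the receptors the ranges of the groups overlap but are not the same.

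The beta subunit genes are set side by side first, since they decide which inhibin or activin can form. Inhba (ENSMUSG00000041324) lies at chr13:16011851-16031621 on the plus strand of mm10 and Inhbb (ENSMUSG00000037035) at chr1:119415465-119422248 on the minus strand. The 250 bases before their RefSeq starts (GRCm38.p6) are shown because the products are near relatives and the stretches before the genes are not alike. Capitals mark TATAAA, the core letters of a TATA box, in Inhba, and CCGCCC, those of a GC box, in Inhbb.
Inhba, chr13:16011601-16011850, plus strand: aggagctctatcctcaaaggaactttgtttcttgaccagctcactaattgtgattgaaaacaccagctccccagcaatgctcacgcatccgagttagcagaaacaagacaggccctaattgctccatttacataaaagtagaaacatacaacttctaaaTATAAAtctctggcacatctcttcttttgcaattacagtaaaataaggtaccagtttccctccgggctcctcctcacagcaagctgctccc
Inhbb, chr1:119422249-119422498, minus strand: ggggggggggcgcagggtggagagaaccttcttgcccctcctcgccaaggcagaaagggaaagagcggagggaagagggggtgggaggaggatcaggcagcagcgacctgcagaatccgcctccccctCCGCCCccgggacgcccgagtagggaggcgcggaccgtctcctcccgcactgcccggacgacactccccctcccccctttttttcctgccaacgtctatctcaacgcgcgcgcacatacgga

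The TATAAA match in Inhba begins 91 bases before the start and the CCGCCC match in Inhbb 122 bases before it. The Inhba stretch is 43.2% GC, which is more than in 19.0% of all 32851 such windows, and the Inhbb stretch is 68% GC, more than in 87.8% of them; the median window is 52.4% GC. Searched on both strands, TATAAA was in 12.4% of all windows and, among the 9 windows of 8 members (Acvr1c has 2), in those of Inhba and Fstl3. The letters CCGCCC were in 32.7% of all windows and in those of Inhbb, Fstl3, Acvr1b, Acvr2a and Acvr2b. They were also in the Acvr1c window at chr2:58357759-58358008, but not in its other window. CAGAC, a letter run bound by SMAD proteins, was in 42.2% of all windows and in those of Inha, Fstl3, Acvr2a and Acvr2b. The cAMP response element TGACGTCA (1.55% of windows) and the NR5A element AAGGTCA (4.08%) had no match in the members' windows. None of these 5 strings contains another, and a match describes letters only. RefSeq windows for Fst and Tgfbr3 were not used here.

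Inhbb encodes the beta B subunit of inhibin B and activin B. Its CPM was 388, 314 and 601 in the CNTR libraries 1 to 3 and 597, 587, 615 and 740.3 in the PAMH F3 libraries 1 to 4. CNTR 1 and CNTR 2 were the low libraries, and CNTR 3 stood between the PAMH F3 libraries, so the groups overlapped through that one mouse. The mean was 434 ± 149 CPM in CNTR (SD, n = 3) and 635 ± 71.3 in PAMH F3 (SD, n = 4), with an exact two-sided permutation p of 0.0857 over the 35 divisions of the libraries, where the smallest possible is 0.0286. The log2 fold change was 0.58 with an SE of 0.12, a 95% interval from 0.29 to 0.87, an unadjusted p of 0.00193 and an adjusted p of 0.447 in edgeR's quasi-likelihood test. In DESeq2's test the adjusted p was 0.00379 with surrogate variables and 0.998 without. Over all alternatives tried, in edgeR or DESeq2, the adjusted p ran from 0.00379 to 1.

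Fst encodes follistatin and lies at chr13:114452290-114458951 on the minus strand (ENSMUSG00000021765). Its CPM was 189, 166 and 278 in CNTR and 256, 318, 301 and 379 in PAMH F3. CNTR 2 was again the lowest library, and only PAMH F3 1 fell under the highest CNTR library, CNTR 3. The mean was 211 ± 59.3 CPM in CNTR (SD, n = 3) and 314 ± 50.9 in PAMH F3 (SD, n = 4), with an exact two-sided permutation p of 0.0857. The log2 fold change was 0.61 with an SE of 0.14, an interval from 0.29 to 0.93, an unadjusted p of 0.00263 and an adjusted p of 0.511 in edgeR's quasi-likelihood test. DESeq2's adjusted p was 0.00711 with surrogate variables, the lowest of all alternatives, and 0.998 without, and the range again reached 1. Fst shares 2.51% of its exon bases with Gm47040 on the other strand, and the strand setting of the counting is not given in the sources used here.

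Inhba encodes the beta A subunit of inhibin A and activin A, known mainly from large follicles. Its CPM was 1155, 936 and 2378 in CNTR and 1692, 1965, 1285 and 2526 in PAMH F3. The highest CNTR library held 2.54 times the lowest, the widest spread of any member in that group, and PAMH F3 3 lay close to CNTR 1. The means were 1489.98 ± 777 CPM in CNTR (SD, n = 3) and 1867 ± 520.4 in PAMH F3 (SD, n = 4), with an exact two-sided permutation p of 0.457. The log2 fold change was 0.40 (SE 0.13, interval 0.09 to 0.71), with an unadjusted p of 0.0193 and an adjusted p of 0.581 in edgeR's quasi-likelihood test. Without surrogate variables it was 0.33 with an unadjusted p of 0.342, so the low p of Inhba came with those covariates.

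Inha, the alpha subunit gene at chr1:75507077-75510366 (ENSMUSG00000032968, plus strand), carries the subunit that turns a beta subunit into an inhibin. Its CPM was 1318, 1648 and 2129.6 in CNTR and 1497, 1589.5, 1796 and 2074 in PAMH F3. All 4 PAMH F3 libraries lay inside the range of CNTR. The means were 1699 ± 408 CPM (SD, n = 3) and 1739 ± 256 (SD, n = 4), with an exact two-sided permutation p of 0.886. The log2 fold change was 0.15, with an interval from -0.10 to 0.40 that leaves room for a difference of either sign, and an adjusted p of 0.788 in edgeR's quasi-likelihood test. With the replicate number as a block in place of the surrogate variables the sign turned, to -0.04.

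**Figure D2:**
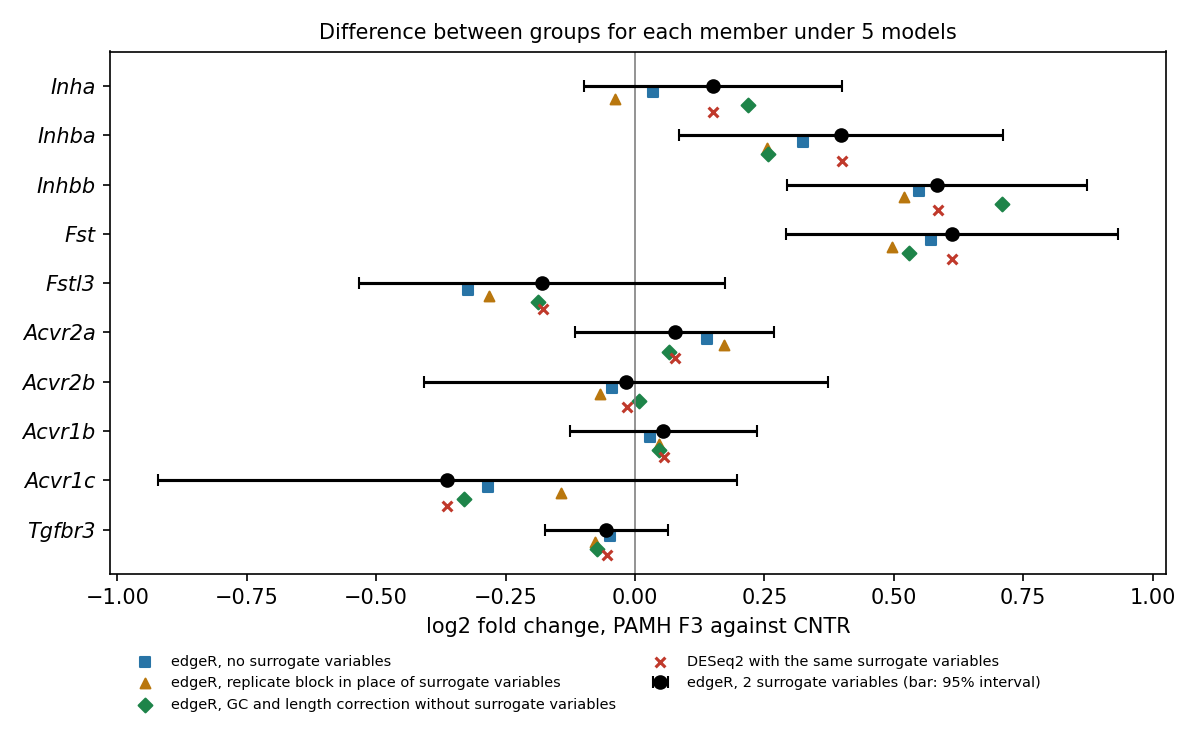
log2 fold change of PAMH F3 against CNTR (x axis) for each member (y axis) in edgeR with 2 surrogate variables (black, bar: 95% interval) and in 4 other models. The intervals of Inhba, Inhbb and Fst lie above 0 and those of the other 7 members include it; for Inha and Acvr2b the models do not share a sign.

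Fstl3 encodes follistatin-like 3, a second binding protein of activins, and was scarce in the ovary. Its CPM was 3.98, 6.36 and 4.55 in CNTR and 3.97, 3.91, 4.13 and 3.86 in PAMH F3, from 123 to 212 counts a library. The PAMH F3 libraries were within 1.07 times of each other, and CNTR 1 fell among them. Fstl3 is 57.1% GC and was highest in CNTR 2, where GC-rich genes were high. The means were 4.96 ± 1.24 CPM (SD, n = 3) and 3.97 ± 0.117 (SD, n = 4), with an exact two-sided permutation p of 0.0571. The log2 fold change was -0.18 (interval -0.53 to 0.17), with an adjusted p of 0.819 in edgeR's quasi-likelihood test. Without surrogate variables it was -0.32, and -0.19 when a correction for GC content and length was added to that model. The part of base composition in these values was not tested. Of the exon bases of Fstl3 (ENSMUSG00000020325, chr10:79777272-79782630, plus strand), 47.3% are also exon of Prss57 on the other strand, so its values are uncertain.

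Activins bind first to a type II receptor, which then activates a type I receptor. Of the type II receptors, Acvr2a (ENSMUSG00000052155, chr2:48814109-48903269, plus strand) was the more abundant. Its CPM was 57.7, 42.9 and 54.7 in CNTR and 60.9, 55.2, 57.7 and 54.2 in PAMH F3. CNTR 2 alone lay below the rest, and the other 6 libraries covered a narrow range. The log2 fold change was 0.08 (interval -0.12 to 0.27), with an adjusted p of 0.863 in edgeR's quasi-likelihood test. For Acvr2b (ENSMUSG00000061393, chr9:119402118-119434995, plus strand) the CPM was 4.25, 4.50 and 6.16 in CNTR and 5.75, 4.04, 4.41 and 5.08 in PAMH F3. The groups were interleaved, and the log2 fold change of -0.02 (interval -0.41 to 0.37) had no stable sign.

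Of the type I receptors, Acvr1b (ALK4, ENSMUSG00000000532, chr15:101174067-101213684, plus strand) is the main partner of activins. Its CPM was 44.2, 50.7 and 40.2 in CNTR and 47.5, 45.6, 45.8 and 44.9 in PAMH F3. All PAMH F3 libraries lay within the CNTR range, and the log2 fold change was 0.05 (interval -0.13 to 0.24). Acvr1c (ALK7, ENSMUSG00000026834, chr2:58267453-58357895, minus strand), which also takes activin B, had 6.36, 3.72 and 5.54 CPM in CNTR and 4.00, 4.55, 5.38 and 3.17 CPM in PAMH F3. With 101 to 211 counts a library and groups that overlapped, its log2 fold change of -0.36 (interval -0.92 to 0.20) had the widest interval of the members. Leaving out each library in turn, with 2 surrogate variables, moved it from -0.53 (without CNTR 2) to -0.055 (without CNTR 1), and the value of Fstl3 from -0.44 (without CNTR 1) to -0.083 (without CNTR 2). Adjusted p was 0.903 for Acvr1b and 0.773 for Acvr1c in edgeR's quasi-likelihood test.

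Tgfbr3 encodes betaglycan, which raises the affinity of inhibin for type II receptors. Its CPM was 131, 123 and 156 in CNTR and 137, 127, 122 and 141 in PAMH F3. The ranges of the groups overlapped, and the log2 fold change of -0.06 had the tightest interval of the members, from -0.17 to 0.06. Tgfbr3 (ENSMUSG00000029287, chr5:107106570-107289629, minus strand) shares 4.54% of its exon bases with Gm43422 on the same strand, where reads are set aside as ambiguous. For the receptors and Tgfbr3, exact two-sided permutation p-values of the CPM lay between 0.314 and 0.771.

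Levels can be ranked between genes only per length. In CPM per kilobase of the median transcript, averaged over all 7 libraries, Inha stood at 1167 ± 202 (SD) and Inhba at 431 ± 155. No Inha value lay under the highest Inhba value. Fst followed at 182 ± 49.9 and Inhbb at 129 ± 34.4, with ranges that overlapped each other, and the highest Fst value passed the lowest of Inhba. Tgfbr3 stood at 63.4 ± 5.72, with its highest library just over the lowest of Inhbb. The receptors were far lower on this scale, at 15.8 ± 1.65 for Acvr2a and 10.3 ± 0.724 for Acvr1b, whose ranges did not meet. Acvr2b (4.20 ± 0.694), Acvr1c (3.12 ± 0.759) and Fstl3 (2.84 ± 0.580) were lowest, each overlapping its neighbour. The order is partly a matter of the length used: by the union of exons Fst came to 58.8 and Inhbb to 129, which exchanged their places, Acvr1b passed Acvr2a, and Acvr1c was last. The order of the leading pair, Inha before Inhba, held for all 3 lengths.

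Ratios within a library do not move with its depth. Inhba stood to Inhbb, per length, at 3.20, 3.21 and 4.25 in CNTR and 3.05, 3.60, 2.25 and 3.67 in PAMH F3, so beta A transcript was the more abundant in every mouse. The alpha subunit stood to the sum of the beta subunits at 2.33, 3.60 and 1.95 in CNTR and 1.79, 1.70, 2.60 and 1.73 in PAMH F3. Every library held more alpha than beta transcript, and PAMH F3 3 was the one PAMH F3 library that lay inside the CNTR range. Fst stood to the beta subunits at 0.334, 0.360 and 0.253 in CNTR and 0.304, 0.339, 0.433 and 0.315 in PAMH F3. On the log2 scale PAMH F3 minus CNTR was -0.19, -0.40 and 0.14 for these ratios, with groups that overlapped for each; no test was run on them. Leaving out each library in turn gave -0.28 to -0.040 for the first, -0.59 (without CNTR 3) to -0.15 (without CNTR 2) for the second and -0.0096 (without CNTR 3) to 0.25 (without CNTR 2) for the third.

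Which library was high for a member differed between members. Likeness was measured as the root mean square difference of mean-centred log2 CPM over the 7 libraries, among 11283 tested genes with a mean of at least 10 CPM. The gene most like Inhbb was Fst, at 0.107 on the log2 scale. Next came Esr2 (estrogen receptor beta, a granulosa cell gene) at 0.110, Masp1 (a complement protease) at 0.134, Slfn4 at 0.136 and Foxo1 (a transcription factor abundant in granulosa cells) at 0.138. Inhba was 179th in likeness to Inhbb and Inha 1258th, although the 3 genes code for subunits of the same dimers. The distance also counts differences in the size of the swings between libraries, not only in their order. For Fst the order was Esr2 (0.0757), Kcnj3 (a potassium channel, 0.103), Inhbb (0.107), Foxo1 (0.118) and Srbd1 (0.120). Inhba was most like Slc26a7 (an anion transporter, 0.117), with Robo1, Masp1 and Aff2 also among its nearest 5, between 0.186 and 0.198, with Inhbb 32nd and Fst 44th. These distances describe the same 7 libraries and include the difference between groups, and they were given no p.

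**Figure D3:**
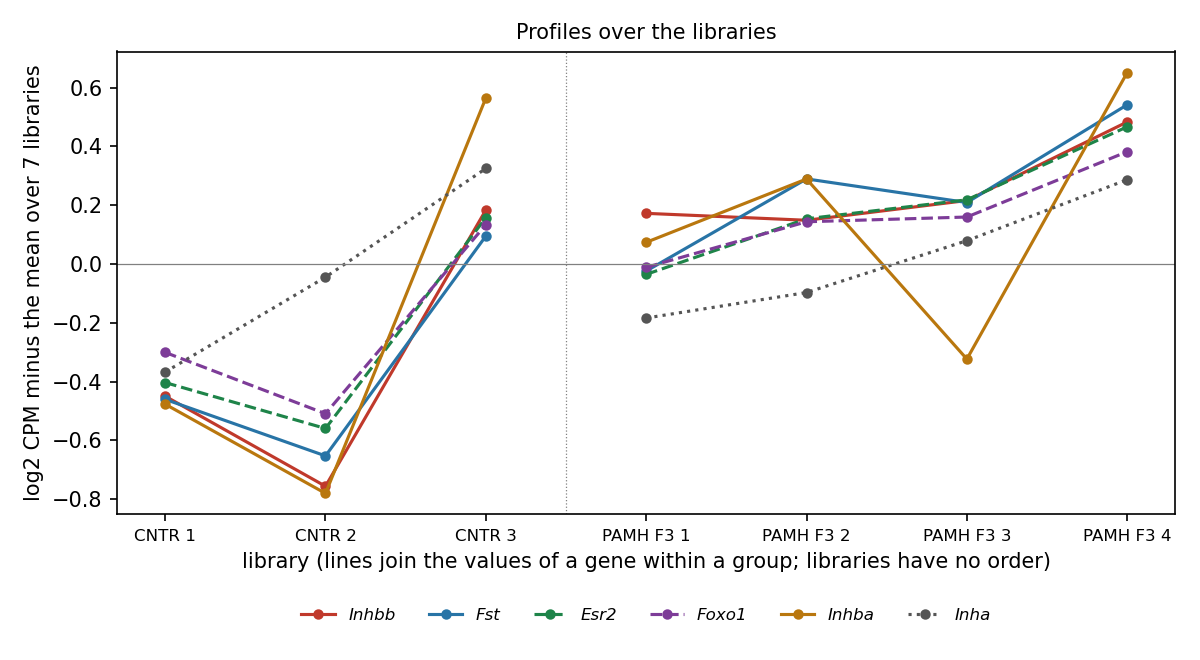
log2 CPM minus the gene's mean over the 7 libraries (y axis) in each library (x axis), for Inhbb, Fst, Inhba and Inha and for Esr2 and Foxo1, which are among the 5 genes most like both Inhbb and Fst; lines join the values of a gene within a group. Inhbb, Fst, Esr2 and Foxo1 run close together, while Inhba drops in PAMH F3 3 and Inha is not low in CNTR 2.

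The ligand subunits and Fst are known mainly from granulosa cells, and in whole ovary fewer cells of a type and less RNA per cell cannot be told apart. The summed level of 10 granulosa markers ran from 4008 to 5986 CPM in CNTR and from 4615 to 6341 in PAMH F3, with a mean 1.08 times as high; Gja1 made up 58.0% of it, and 4 of the 10 markers had a higher mean in PAMH F3. CNTR 3 and PAMH F3 4, the libraries with the most Inha, Inhba, Inhbb and Fst in their groups, had the largest sums. The markers did not move as one: Esr2 (0.49) and Hsd17b1 (0.42) had positive log2 fold changes and Amh (-0.34) and Foxl2 (-0.25) negative ones. Each had an unadjusted p under 0.05 in edgeR's quasi-likelihood test, and none passed the adjusted threshold there. Amh (65.4% GC) and Foxl2 (60.8% GC) were highest in CNTR 2, where GC-rich genes were high. The part of base composition in these values was not tested. Theca markers (2195 to 3784 CPM in CNTR, 2696 to 3259.6 in PAMH F3), luteal markers (2139 to 3743 and 1531 to 2608) and oocyte markers (416 to 505 and 321 to 519) overlapped between the groups, and the mean of the luteal sum in PAMH F3 was 0.776 times that in CNTR. Ptgfr (-0.95) and Prlr (-0.36) of the luteal list, Pecam1 (-0.44) and Emcn (-0.21) of the endothelial list and Aldh1a1 (0.22) of the theca list were the other markers at an unadjusted p under 0.05, and none of them passed the adjusted threshold in edgeR's quasi-likelihood test. Of the 12 marker lists, the stromal sum was the one whose groups did not overlap, at 1485 to 1529 CPM in CNTR and 1126 to 1460.1 in PAMH F3. Dcn made up 52.7% of that sum, and Dcn, Lum, Pdgfra and Col1a1, the genes of the list, each overlapped between the groups. Among single genes tested, 4.25% had groups that did not overlap. The part of these lists in the members' values was not tested.

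Set against the granulosa sum, a comparison added after the values above had been seen, Inhbb and Fst separated the groups. Inhbb came to 85.2, 78.2 and 100.5 CPM per 1000 CPM of the markers in CNTR and to 128, 111, 133 and 117 in PAMH F3. Fst came to 41.6, 41.3 and 46.5 in CNTR and to 54.8, 60.4, 65.2 and 59.8 in PAMH F3. All PAMH F3 libraries lay above all CNTR libraries for both genes, with means 1.39 times as high, whereas the other 8 members overlapped. PAMH F3 lay wholly above CNTR for 0.415% of all genes on this scale. Dividing by this sum takes out spread shared with the granulosa markers and adds it to genes that do not share it. The shares over all genes given here are therefore not a like baseline for granulosa genes, and they lend the separation no support. For Inhba the values were 254, 234 and 397 against 362, 373, 278 and 398, and for Inha 290, 411 and 356 against 320.1, 302, 389 and 327. With Gja1 left out of the sum both ratios were 1.44, with the geometric mean of the markers both were 1.48, and the groups stayed apart under these denominators too, as in 0.586% and 0.847% of genes. These 3 denominators were the only ones tried, and all are built from the same markers, so they are not separate checks of each other. Esr2, which runs close to both genes, is one of the markers, and no test was run.

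**Figure D4:**
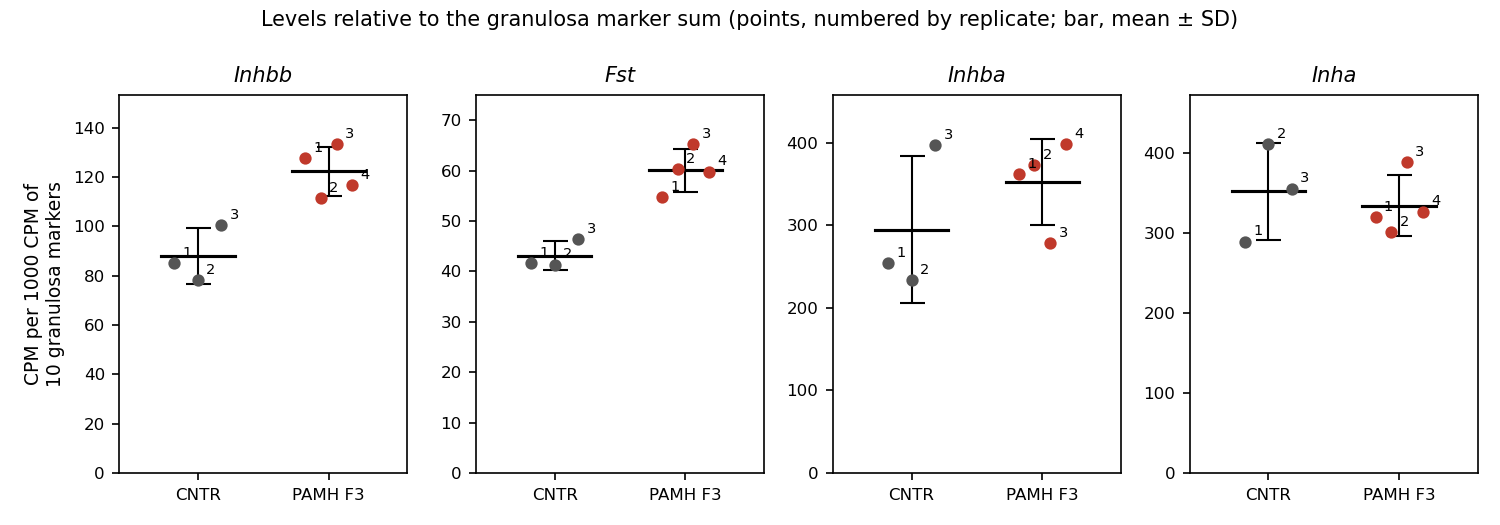
CPM per 1000 CPM of the 10 granulosa markers (y axes, linear, from 0) for Inhbb, Fst, Inhba and Inha in the CNTR (grey) and PAMH F3 (red) libraries, numbered by replicate, with the mean ± SD. Inhbb lies at 78.2 to 100.5 in CNTR and 111 to 133 in PAMH F3, Fst is likewise apart, and Inhba and Inha overlap.

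How far a single mouse carries these values was read by leaving out each library in turn. With 2 surrogate variables the log2 fold change of Inhbb then ran from 0.46 (without CNTR 2) to 0.77 (without CNTR 3) and that of Fst from 0.52 to 0.75 at the same libraries. Without surrogate variables the ranges were 0.36 to 0.86 and 0.42 to 0.82. In that model no member had an unadjusted p under 0.05 without CNTR 2 (2.76% of genes had), and without CNTR 1 the one member was Fstl3, lower in PAMH F3 (8.56% of genes). Inhba was the least steady of these genes, from 0.08 without CNTR 2 to 0.83 without CNTR 3 in the model without surrogate variables. With 2 surrogate variables and without PAMH F3 1, Fst passed the adjusted threshold in edgeR's quasi-likelihood test, at 0.0496 with a log2 fold change of 0.69, as did 37 genes in all (0.199% of those tested, and 0.0215% as higher in PAMH F3). Without surrogate variables its adjusted p there was 0.874 in the same test. With a correction for GC content and length, and no surrogate variables, Inhbb (60.9% GC) came to 0.71, Fst (44.3% GC) to 0.53 and Inhba (41.4% GC) to 0.26.

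**Figure D5:**
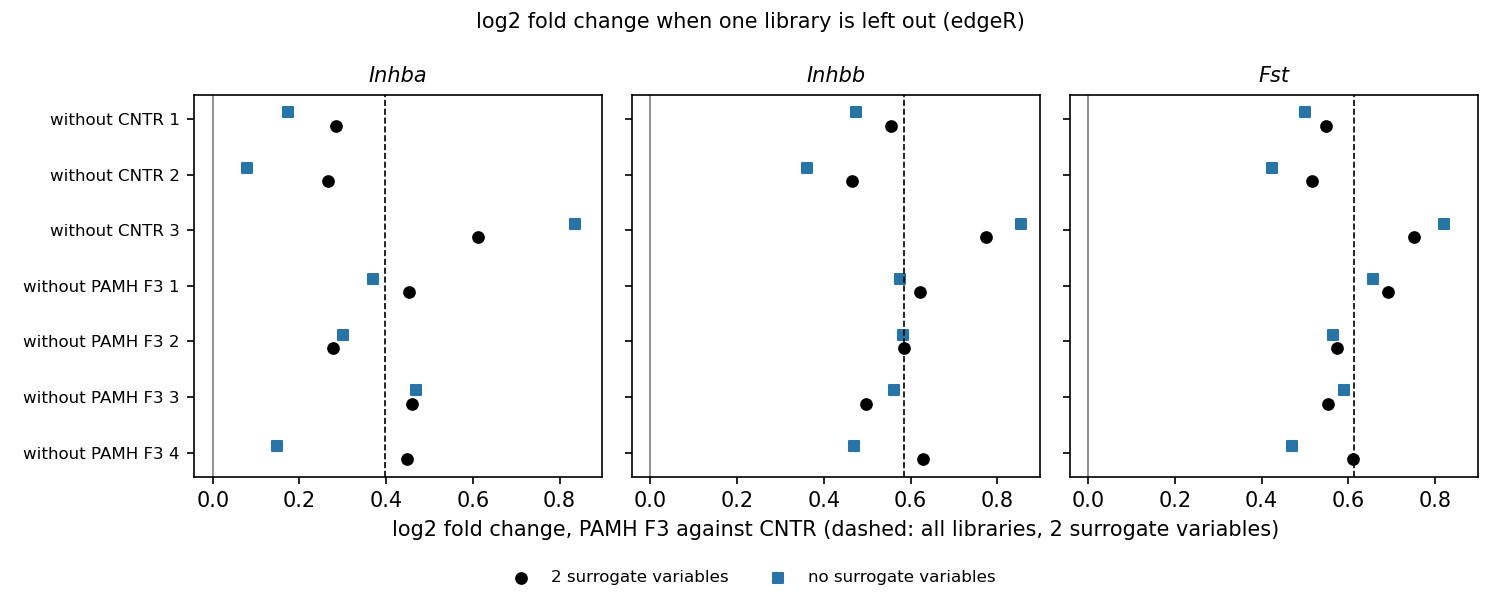
log2 fold change of PAMH F3 against CNTR (x axis) for Inhba, Inhbb and Fst with one library left out (y axis), in edgeR with 2 surrogate variables (black circles) and with none (blue squares); the dashed line is the value from all libraries. All points lie above 0, and the points without CNTR 3 are the highest in each panel.

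Around the members, 59 further genes of the pathway were read from a list, of which 49 passed the filter. At an unadjusted p under 0.05, 2 were higher and 3 lower in PAMH F3 (3.75% and 3.89% of all genes were), none passed the adjusted threshold in edgeR's or DESeq2's test, and the median log2 fold change was -0.0068. Of the 10 other ligands 5 were measured, among them the oocyte factors Gdf9 and Bmp15, and none was under 0.05. Inhbc and Inhbe, the beta subunits known from liver, had at most 1 count in any library, so nearly all beta subunit counts came from Inhba and Inhbb. Of 12 measured receptors and coreceptors, Bmpr2, a type II receptor used by BMPs, was under 0.05 with a log2 fold change of 0.31. It had 482, 435 and 758 CPM in CNTR and 585, 703, 609 and 770.1 in PAMH F3, with CNTR 3 again among the PAMH F3 libraries.

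Of 12 measured signal transducers and inhibitors, Tgif1, a corepressor that binds SMAD2, was the one under 0.05, with a log2 fold change of 0.19. Its CPM was 127, 114 and 144 in CNTR and 144, 139, 135 and 181 in PAMH F3. Furin, which cleaves the precursors of these ligands, was the one of 12 processing and binding genes under 0.05, at -0.30. Its CPM of 145 in CNTR 2 was the highest, and the other 6 libraries lay between 65.5 and 89.1. Furin is 55.9% GC, and GC-rich genes were high in CNTR 2. The part of base composition in its value was not tested. Of 8 measured targets or regulators in granulosa cells, 2 were under 0.05, both lower in PAMH F3, and Foxl2 was one of them. Foxl2, a transcription factor that maintains granulosa cell identity and is known to act with SMAD3 on Fst in the pituitary, had 50.0, 82.4 and 66.0 CPM in CNTR and 41.0, 51.7, 54.6 and 49.9 in PAMH F3 (log2 fold change -0.25). The groups overlapped for Bmpr2, Tgif1, Furin and Foxl2, whose adjusted p lay between 0.540 and 0.641 in edgeR's quasi-likelihood test. Fstl4, another follistatin-like gene, was lower in CPM in every PAMH F3 library than in any CNTR library, but at 1 to 10 counts a library it was not tested. CNTR 3 (0.186 CPM) and PAMH F3 1 (0.170 CPM) had the same raw count, so the separation in CPM rests on the scaling. Of the tested genes, 4.25% had groups that did not overlap.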

How the data were processed

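Each library held poly(A) RNA of whole ovary from 1 mouse and was made with a stranded kit. Per the labels and the study's methods, the authors used bcl2fastq 2.17.1.14, mapped single reads to mm10 with STAR 2.5.3a, and counted uniquely aligned reads per Ensembl gene with HTSeq 0.6.1p1 in union mode. The authors deposited these raw counts, without normalization. The annotation release and the strand setting of the counting are not given in the sources used here. Summary lines for reads in no gene, ambiguous or not unique were left out; reads not placed uniquely were 37.7% to 40.7% of a library.

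Libraries were scaled by TMM over all gene rows. The 18779 genes kept by filterByExpr (minimum count 10) were tested with edgeR 4.0.16 in R 4.3.3 (quasi-likelihood F test, robust fitting off) with 2 surrogate variables (sva 3.50.0, seed 1), which left 3 residual degrees of freedom. Benjamini-Hochberg adjustment ran over all genes tested, and 0.05 was the threshold. The SE was the log2 fold change over the root of F. CPM of each member was also compared by a two-sided exact permutation test, 10 tests that were not adjusted. The permutation p measures the spread between these mice. P values of fits with surrogate variables measure the spread left after those covariates.

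Alternatives changed the surrogate variables (0, 1 or 3), the tool (DESeq2 1.42.0), the scaling, the filter, robust fitting, a replicate block, a GC and length correction, transcript lengths, and the set of libraries, dropping 1 at a time. Levels relative to granulosa markers were added after seeing the data. The scripts were tested on simulated data. The members, the pathway and marker lists and the tests were chosen with earlier results of these data known. All 10 members were named, with pathway genes at an unadjusted p under 0.05 or with groups that did not overlap, and the 5 genes nearest in profile to Inhbb, Fst and Inhba; some of the genes this rule names are not reported here. Promoter windows came from RefSeq (GRCm38.p6). The MeDIP-seq and other data of the study were not analysed here.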

Additional observations from a re-analysis of the deposited data

Results flagged for a closer look

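The log2 ratio of Inha to Inhba plus Inhbb, per length, was 1.38 in PAMH F3 replicate 3, while the other PAMH F3 libraries lay between 0.76 and 0.84. The gap to the nearest of them was 0.880 of the whole range of the group, past the 95% critical value of Dixon's test for 4 libraries. Inhba was low in that library (1285 CPM) and Inha was not (1796 CPM). The CNTR libraries ran from 0.96 to 1.85 on the same scale, so the value lay inside their range. Of 25 values checked in the PAMH F3 group it was the one found this way. Chance flags about 1 of every 20 values checked, so 1 find among 25 is about what chance gives.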

How the results depend on the processing

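Without a replicate block and with 2 surrogate variables, 0 genes passed an adjusted p of 0.05 in edgeR's quasi-likelihood test and 1435 had an unadjusted p under 0.05 (704 higher, 731 lower). DESeq2 gave 101 genes past the adjusted threshold with the same surrogate variables and 6 without them, and edgeR gave 8 with no filter on low counts. Leaving out each library in turn gave 0 to 39 genes with surrogate variables (39 without CNTR 1, 37 without PAMH F3 1) and 0 to 2 without. At an unadjusted p under 0.05, 741 genes (208 higher, 533 lower) were left without surrogate variables, 759 (265 higher, 494 lower) with the GC correction and 842 with DESeq2 without surrogate variables; leaving out a library gave from 449 to 3251.

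Inhba, Inhbb, Fst and Acvr2a stayed positive, and Fstl3 and Acvr1c negative, under every alternative run. With surrogate variables, Inhbb passed the adjusted threshold in DESeq2 (0.59) and Fst in DESeq2 (0.61) and in edgeR without PAMH F3 1; without surrogate variables neither passed in these. Leave-one-out values of Fst ran from 0.52 to 0.75 with surrogate variables. Inha turned to -0.038 with the replicate block, to -0.066 relative to granulosa markers and to -0.058 without PAMH F3 4 and surrogate variables; left-out libraries gave -0.11 to 0.23 with surrogate variables and -0.12 to 0.23 with none. Acvr2b turned to 0.0076 with the GC correction and ran from -0.13 to 0.073 with surrogate variables and from -0.14 to 0.14 with none, where leaving out PAMH F3 2 gave 0.032. Acvr1b turned to -0.082 relative to granulosa markers and ran from -0.019 to 0.11 with surrogate variables and from -0.047 to 0.12 with none. Tgfbr3 ran from -0.12 to 0.058 without surrogate variables. The cause of these turns was not tested. Ratios between members and marker sums moved by less than 1 SD under each of their alternatives, but the sign turned for the ratio of Fst to the beta subunits (-0.0096 without CNTR 3) and for 7 of the 12 marker sums, among them granulosa (-0.010 without CNTR 2), theca (-0.088 without CNTR 1) and oocyte (0.12 without PAMH F3 1).

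The replicate numbers were not taken to pair the mice. Deviations of same-numbered libraries correlated at 0.0957, 0.0965 and -0.25, CNTR 2 and CNTR 3 were closer to other numbers than their own, and PAMH F3 4 has no partner. With the replicate block in place of the surrogate variables, since both together leave no residual degrees of freedom, 0 genes passed the adjusted threshold and 447 had an unadjusted p under 0.05. With 3 mice against 4, an exact permutation p cannot go under 0.0286, and the lowest count of a member in a library was 101 (Acvr1c).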
